A study of Danio rerio with 14 samples.

Results

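The nuclear genes of the respiratory chain were followed in RNA sequencing of zebrafish intestine. Members were chosen by symbol from the count table: names that start with ndufa, ndufb, ndufc, ndufs, ndufv, uqcr, cox4 to cox8 or atp5, and the 4 sdh genes, with the ndufaf assembly factors left out. This gave 96 of the 32520 genes, of which 38 belong to complex I, 5 to complex II, 8 to complex III, 25 to complex IV (the ndufa4 genes included) and 20 to complex V. A symbol was available for 29201 genes, so a subunit gene without one is not among the members. The exception is ndufa9b (ENSDARG00000094312), which was entered by its identifier and not by the symbol search. Of the members, 9 share their symbol with another, and for these the identifier is printed. The filter on low counts kept 92 members, which are the members tested below. The 14 libraries fall into 4 groups: 3 ASIP H and 3 ASIP M libraries from transgenic fish carrying Tg(Xla.Eef1a1:Cau.Asip1)iim04, and 4 WT H and 4 WT M libraries from fish whose genotype label is Tubingen. Read by standard transgene nomenclature, iim04 carries the agouti signalling protein gene Asip1 of goldfish, driven by the promoter of Eef1a1 from the frog Xenopus laevis, a gene active in most cell types. The labels give no age, do not explain the letters M and H that end the sample titles, and name no background strain for the transgenic fish, so a strain difference cannot be told apart from the transgene. Whether each library is a separate fish is not stated, so the p-values rest on variation among samples that could be partly technical.

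The respiratory chain lies in the inner mitochondrial membrane. Complex I takes electrons from NADH and complex II from succinate, complex III passes them from ubiquinol to cytochrome c, complex IV gives them to oxygen, and complex V, the ATP synthase, uses the proton gradient that complexes I, III and IV build up. A small set of core subunits is encoded in mitochondrial DNA, and the rest are nuclear genes, described here. Several complex IV subunits exist as duplicated or tissue-specific isoforms in vertebrates, and zebrafish keep further copies from the genome duplication of teleost fish. Enterocytes, the absorptive cells of the gut, carry many mitochondria that power the uptake of nutrients.

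Libraries held between 9847910 and 14091791 counts. Levels are given as CPM, counts scaled to each library's total with edgeR's TMM factors, or, between genes of different length, as the FPKM values that the authors deposited. The transcripts of the members took 0.802 to 0.928% of the counts in ASIP H, 0.916 to 1.17% in ASIP M, 0.705 to 1.08% in WT H and 0.982 to 1.75% in WT M libraries. Their share in WT H 7 was 1.03%, so lower CPM of the members in that library depends on its TMM factor, 1.57. In bulk tissue, fewer cells of a type and less RNA per cell cannot be told apart. The libraries WT H 6, WT H 7 and WT M 2 stood apart, and the comparisons between groups are given with all libraries and again without these. The transgenic groups were not uniform either. ASIP H 14 was the highest library for 10.6% and the lowest for 10.9% of all tested genes, against 8.31 and 8.97% for WT M 2. Liver markers took 0.437% of its counts, against 5.61 and 5.10% in ASIP H 13 and 16. It was left out only in the fits without 1 library.

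The library WT H 6 is labelled intestine, but its enterocyte markers were nearly absent. Whether the label is right or the tissue was mixed was not tested for WT H 6 or WT H 7, and this doubt touches each WT H value and each comparison within H. The 27 enterocyte markers took 0.0719% of its counts and 0.442% of those of WT H 7, against 3.34 to 11.5% in the other 12 libraries. FABP2, the intestinal fatty acid binding protein, stood at 5.54 CPM in WT H 6 and 20.5 CPM in WT H 7 and at 596 to 4048 CPM elsewhere. In WT H 6, 4 of the 27 markers had no count. Of these, alpi.1 and ANPEP (ENSDARG00000036809) were low everywhere, at most 0.747 and 1.69 CPM in any library. The others, MEP1B (ENSDARG00000037533) and apoa4a, had 310.4 to 1641 and 8.30 to 219.9 CPM outside WT H 6 and WT H 7. The 26 ovary and oocyte genes made up 2.52% of WT H 6, 0.462% of WT H 7 and 0.122% of WT H 8, against 0.00488 to 0.0512% in the other libraries. H1-10, a gene of this list, went the other way, at 18.5 CPM in WT H 6 against 55.7 to 165 CPM elsewhere. It can make up most of a low share: in ASIP M 11 it was at 165 CPM, and the others at 0.254 CPM or less. All 26 had counts in WT H 6, WT H 7, WT H 8 and ASIP H 13, whereas 13 to 21 of them were at 0 in the M libraries other than WT M 1 and in the other ASIP H libraries. Vitellogenin transcripts took 7.95 to 21.0% of ASIP H libraries and 6.18% of WT H 8, against at most 0.00201% in all other libraries. Among the WT H libraries only WT H 8 carried them, so genotype and this content were mixed within H. This holds also without WT H 6 and WT H 7, because WT H 5 lacks them. Apart from a fit scaled without these genes, the part of this content in the members' values was not tested.

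WT M 2 stood apart in the members themselves, so leaving it out moves their values in a direction set by that choice. It was the highest of the 14 libraries for 78 of the 92 members, or 84.8%, against 8.31% of all tested genes, and lay a median of 0.71 log2 CPM above the mean of the other WT M libraries. Its mitochondrially encoded transcripts took 8.96% of counts, against 0.699% in WT H 6, 4.83% in WT H 7 and 3.26 to 6.56% in the other libraries. This library also had the lowest shares of exocrine pancreas markers, 0.155%, and of liver markers, 0.102%. The part of these contents in the members' levels was not tested.

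**Figure D1:**
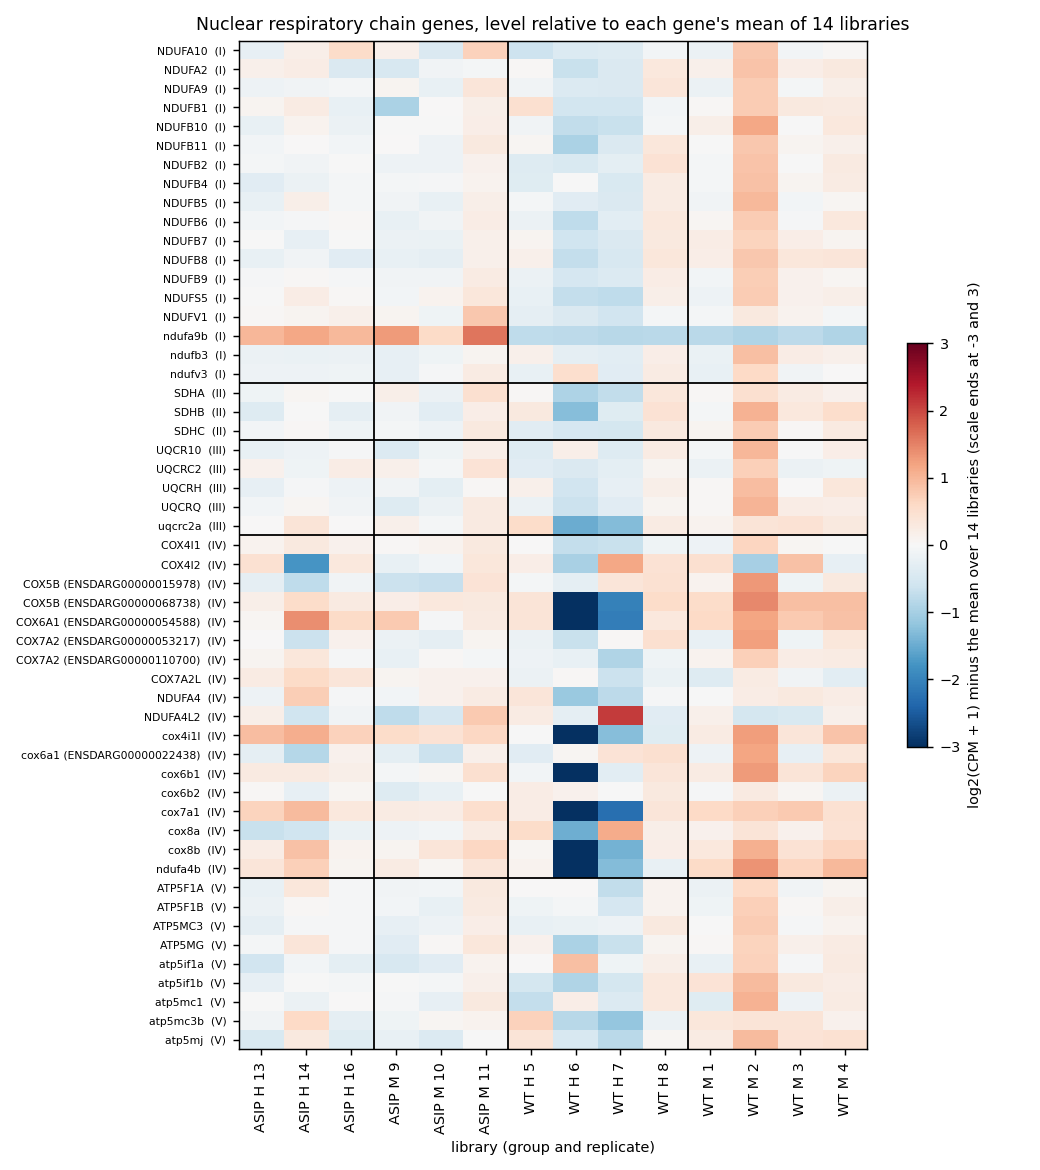
Level of the 53 tested genes that the naming rule selects (rows, grouped by complex) in each library (columns), as log2(CPM + 1) minus the gene's mean over the 14 libraries, with the colour scale ending at -3 and 3. WT M 2 is high for most genes, ndufa9b separates the transgenic from the wild-type libraries, and several complex IV genes are deep blue in WT H 6 and WT H 7.

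Complex I was measured through 38 genes, with a median of their mean FPKM of 47.4. The most abundant were NDUFS5, an accessory subunit, at 83.2 ± 5.05 FPKM in ASIP H, 105 ± 11.1 in ASIP M, 80.5 ± 20.2 in WT H and 115 ± 37.1 in WT M libraries (SD, n = 3, 3, 4 and 4), and NDUFB9, another accessory subunit, with a mean of 87.9 FPKM over all libraries. Of the 38, 36 reached 10 FPKM. The exceptions were ndufa9b, described next, and NDUFS1, which encodes the largest core subunit with several iron-sulphur clusters and was listed at a mean of 0.0773 FPKM, with 32 counts over the 14 libraries. NDUFS1 was not tested. The core subunit gene NDUFV1, which encodes the NADH-binding subunit, was at 200.2 CPM on average in transgenic libraries and at 161 CPM in wild-type libraries.

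Of the 92 tested members, ndufa9b, the member entered by its identifier, alone passed edgeR's test between the genotypes at an adjusted p under 0.05. Over both letters 4.21% of all 18619 tested genes passed. Its paralog NDUFA9 encodes an accessory subunit of complex I at the junction of its arms. RefSeq annotation of the GRCz12tu assembly lists a gene of the symbol ndufa9b as a pseudogene, and reads of such similar copies may be miscounted. It had 30, 31 and 32 counts in ASIP H replicates 13, 14 and 16 and 48, 23 and 56 counts in ASIP M replicates 9, 10 and 11. In WT H it had 1 count in each of the 4 libraries, and in WT M 1, 0, 1 and 0. No wild-type library came near a transgenic one.

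Scaled to CPM, ndufa9b averaged 2.89 ± 0.293 in ASIP H, 3.35 ± 1.48 in ASIP M, 0.0837 ± 0.0184 in WT H and 0.0387 ± 0.0449 in WT M libraries (SD, n = 3, 3, 4 and 4). Over both letters it was higher in transgenic libraries by 5.50 on the log2 scale (SE 0.44, edgeR adjusted p = 3.32e-05). Within H the fitted difference was 4.98 (SE 0.61, edgeR adjusted p = 0.00181), and within M it was 6.02 (SE 0.65, edgeR adjusted p = 0.000881). The low-count filter kept ndufa9b through the transgenic libraries alone, so only a rise could be called. The gene was also entered with earlier results of these data known, so its p-values are those of a selected gene. Because wild-type counts are so few, the ratio of scaled counts is given as well. Over both letters, 220 transgenic against 6 wild-type counts gave a ratio of 50.4 with an exact 95% interval of 22.8 to 139. Within H, 93 transgenic against 4 wild-type counts gave 35.6 (13.5 to 134), and within M, 127 against 2 gave 78.7 (21.3 to 657). These intervals pool the reads of each group and cover counting error only, not the variation between libraries.

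The level of ndufa9b was small beside its paralog. NDUFA9 was at 82.7 ± 2.63 CPM in ASIP H, 95.3 ± 18.9 in ASIP M, 82.8 ± 23.3 in WT H and 104 ± 33.0 in WT M libraries, and did not pass over both letters (-0.07 on the log2 scale, SE 0.21, adjusted p = 0.876). Of the summed FPKM of the pair, ndufa9b held 3.72 to 6.43% in the 6 transgenic libraries and at most 0.225% in the 8 wild-type ones. Its effect did not pass a test of difference between H and M (interaction log2 fold change -1.04, SE 0.90, adjusted p = 0.752). The call was kept in all 21 alternatives over both letters and in all 22 within M, and in 22 of 23 within H, where the 3 ASIP H against the WT H libraries 5 and 8 alone gave 4.86 at an adjusted p of 0.0521.

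**Figure D2:**
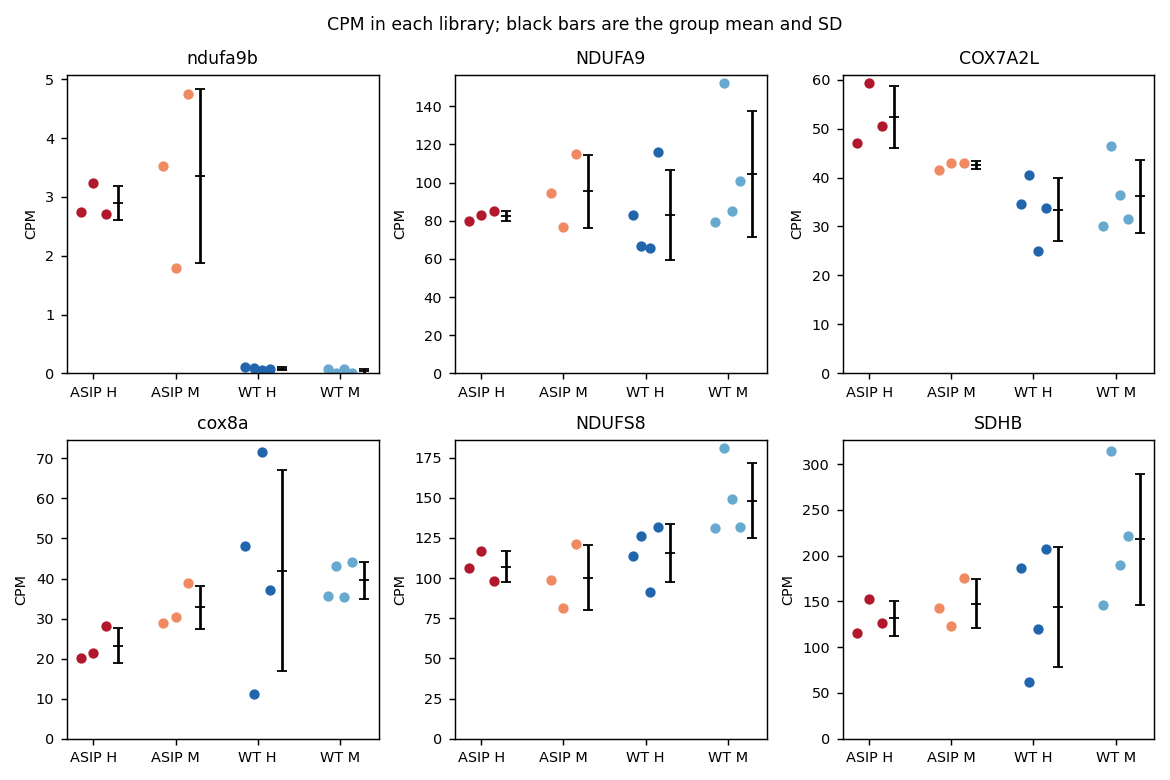
CPM of 6 genes in each library (points), by group, with the group mean and SD in black. For ndufa9b all transgenic libraries lie between 1.79 and 4.74 CPM and all wild-type libraries at or below 0.106 CPM, while for the other 5 genes the transgenic and wild-type libraries overlap over both letters.

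NDUFS8, an iron-sulphur subunit, and NDUFB8, an accessory subunit of the membrane arm, did not pass with edgeR. NDUFS8 had 106, 117 and 97.9 CPM in ASIP H and 98.9, 81.1 and 121 CPM in ASIP M libraries, against 114, 126, 91.2 and 132 CPM in WT H and 131, 181, 149 and 132 CPM in WT M libraries. Within M the groups did not overlap, within H they did. Its log2 fold change was -0.56 within M (SE 0.25, adjusted p = 0.565) and -0.11 within H (SE 0.25, adjusted p = 0.780), and it is named here after its values were seen. NDUFB8 averaged 73.2 ± 5.92 CPM in ASIP H, 79.4 ± 13.3 in ASIP M, 78.6 ± 26.8 in WT H and 117 ± 23.4 in WT M libraries, a difference within M of -0.55 on the log2 scale (SE 0.29, adjusted p = 0.754).

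The 10 other ndufb genes had log2 fold changes within M between -0.58 (NDUFB1) and -0.22 (NDUFB9), and none passed the test. NDUFV1 had the highest log2 fold change of complex I within M after ndufa9b. It averaged 186 ± 7.90 CPM in ASIP H, 215 ± 77.3 in ASIP M, 139 ± 21.8 in WT H and 184 ± 22.4 in WT M libraries. Its log2 fold change was 0.41 within H (adjusted p = 0.344) and 0.23 within M (SE 0.27), where it did not pass. The high mean in ASIP M came with 303 CPM in replicate 11, against 183 and 159 CPM in replicates 9 and 10.

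Complex II, succinate dehydrogenase, links the citric acid cycle to the chain. SDHA, the flavoprotein subunit, was its most abundant transcript, with 302 ± 19.4 CPM in ASIP H, 349.5 ± 78.8 in ASIP M, 261 ± 107 in WT H and 360.0 ± 48.2 in WT M libraries. SDHC and SDHD (ENSDARG00000030139), the membrane anchors, averaged 51.6 and 64.7 CPM in transgenic and 54.5 and 67.7 CPM in wild-type libraries. A second gene with the SDHD symbol (ENSDARG00000055712) had 55 counts in all and was not tested. SDHB, the iron-sulphur subunit, had 116, 153 and 126 CPM in ASIP H and 143, 123 and 176 CPM in ASIP M libraries, against 187, 62.3, 119.5 and 207 CPM in WT H and 146, 314, 190.2 and 221 CPM in WT M libraries. The groups overlapped, and its log2 fold change was -0.35 over both letters (SE 0.28, adjusted p = 0.500).

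Complex III, the cytochrome bc1 complex, had 8 members. The core protein gene uqcrc2a and the hinge protein gene UQCRH were the most abundant, with means of 99.4 and 102 FPKM, and UQCRB, a subunit that binds ubiquinone, was listed at 3.30 FPKM. The paralogs uqcrc2a and UQCRC2 shifted in WT H 6 and WT H 7. There uqcrc2a fell to 68.3 and 78.6 CPM, against 187 to 288 CPM in the other 12 libraries, while UQCRC2 stood at 101 and 113 CPM, against 108 to 228 CPM. The share of uqcrc2a in their summed FPKM was 39.4 and 40.1% in those libraries and 51.7 to 71.9% elsewhere. Between genotypes over both letters, 0 of 8 passed, against 4.21% of all tested genes. Log2 fold changes over both letters ran up to 0.20 (UQCRC2) and down to -0.27 (UQCRH and UQCR10).

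Complex V was the most abundant per length after complex IV, with a median of the members' mean FPKM of 85.3 against 101 for complex IV. ATP5F1B, the catalytic beta subunit, had the highest mean, 616 FPKM over all libraries. It was at 1105 ± 137 CPM in transgenic and 1176 ± 305 CPM in wild-type libraries (SD, n = 6 and 8). ATP5F1A, the alpha subunit, had a mean of 518 FPKM, and atp5mc3b, which encodes the membrane c subunit, 557 FPKM. Among the c-subunit genes, atp5mc3b held 50.7 to 82.6% of the summed FPKM, atp5mc1 11.5 to 38.6% and ATP5MC3 5.93 to 14.4%. The lowest share of atp5mc3b was in WT H 6 and the highest in WT H 5.

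The genes of the ATPase inhibitory factor, which blocks ATP breakdown by the synthase, did not keep 1 pattern. atp5if1a averaged 44.8 ± 7.92 CPM in ASIP H, 47.4 ± 10.6 in ASIP M, 68.5 ± 24.7 in WT H and 64.4 ± 19.1 in WT M libraries, with the highest value, 105 CPM, in WT H 6. Its log2 fold change was -0.53 over both letters (SE 0.23, adjusted p = 0.231). atp5if1b was at 34.8 ± 2.98 CPM in ASIP H, 37.7 ± 2.96 in ASIP M, 29.2 ± 11.7 in WT H and 53.0 ± 13.7 in WT M libraries, with its lowest value, 19.4 CPM, in WT H 6. The membrane subunit gene atp5mj had the lowest log2 fold change of complex V within M, -0.76 (SE 0.33, adjusted p = 0.554), with 61.5, 53.8 and 70.9 CPM in ASIP M against 86.1, 139, 95.4 and 99.3 CPM in WT M libraries. Within H its log2 fold change was -0.00.

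Complex IV, cytochrome c oxidase, held the members with the largest drops in WT H 6 and WT H 7, and these drops followed isoforms. Its median relative to WT H 5 and WT H 8 was -1.14 log2 CPM in WT H 6, the lowest of the complexes. In WT H 7 its median was -0.53, against -0.52 in complex I, -0.75 in complex II and -0.62 in complex V. In WT H 6, 7 of its 23 tested members lay at least 4-fold below the mean of WT H 5 and WT H 8 on the log2 CPM scale. No tested member of another complex did. Over all members this was 7 of 92. Of all tested genes 22.1% lay this low in WT H 6, the share to set beside both 7 of 23 and 7 of 92. The 7 were COX6A1 (ENSDARG00000054588), at -5.92 log2 CPM relative to those libraries, COX5B (ENSDARG00000068738) at -5.45, cox4i1l at -5.40, cox7a1 at -5.12, ndufa4b at -4.04, cox6b1 at -3.92 and cox8b at -3.85. In WT H 7, 3 of 92 members were at least 4-fold lower, against 6.06% of all tested genes: cox7a1 at -2.81, COX5B (ENSDARG00000068738) at -2.56 and COX6A1 (ENSDARG00000054588) at -2.49. In neither WT H 6 nor WT H 7 did the 92 members lie this low more often than all tested genes. The enterocyte, ovary and mitochondrial shares of these libraries are given above. Their part in this pattern was not tested.

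The paralogs of these genes differed far less from the other libraries. Subunit 4 regulates the enzyme, and its gene cox4i1l had 466, 519.9 and 395 CPM in ASIP H and 356, 329.7 and 377 CPM in ASIP M libraries, against 242, 4.90, 99.7 and 188 CPM in WT H replicates 5 to 8 and 289, 587, 312 and 443 CPM in WT M libraries. Its paralog COX4I1 had 125 and 129 CPM in WT H 6 and WT H 7 and 185 to 322 CPM elsewhere. By FPKM, COX4I1 was at 181 in WT H 6 and 286 in WT H 7, against 263 to 475 elsewhere. Its low level in WT H 7 thus depends on the scaling. In WT H 6, COX4I1 made up 94.6% of the summed FPKM of the COX4 genes, against 33.3 to 51.5% in the 12 libraries other than WT H 6 and WT H 7. COX4I2, an isoform that in mammals is linked to low oxygen and the lung, stayed low, at a mean of 10.1 FPKM, and was highest in WT H 7, at 19.3 CPM.

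The genes of subunits 5B and 6A were split in the same libraries. COX5B (ENSDARG00000068738) held 2.61% of the family's summed FPKM in WT H 6, against 41.0 to 65.4% in the 12 libraries other than WT H 6 and WT H 7. In WT H 7 it was at 15.9 CPM, against 76.9 to 185 CPM in those 12. COX5B (ENSDARG00000015978) held 97.1 and 87.3% in WT H 6 and WT H 7, against 34.3 to 58.8% elsewhere. COX6A1 (ENSDARG00000054588) held 2.99 and 21.7% of its pair, against 59.4 to 88.6% elsewhere. By level, COX6A1 (ENSDARG00000054588) was at 2.09 CPM in WT H 6 and 24.2 CPM in WT H 7, against 103 to 279 CPM in the other 12 libraries, whereas cox6a1 (ENSDARG00000022438) was at 103 and 132 CPM, within the 54.3 to 226 CPM of the others. A further COX5B gene (ENSDARG00000113254) had 75 counts in all and was not tested.

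Shares also shifted in WT H 6 in the COX6B, COX8, COX7A and NDUFA4 families. The pair of subunit 5A showed no split: COX5A held 35.3% of its summed FPKM with cox5aa in WT H 6 and 36.9% in WT H 7, within the 22.1 to 39.4% of the other 12 libraries. The usually dominant cox6b1 held 29.1% of its pair in WT H 6, against 83.5 to 92.7% in the 13 other libraries, with 13.4 CPM, while cox6b2, whose mammalian counterpart is testis-enriched, kept 81.7 CPM. cox8b held 36.2 and 30.5% of the COX8 pair in WT H 6 and WT H 7, against 65.1 to 88.1% elsewhere. There cox8a did not stay level: it was lowest of all in WT H 6, at 11.2 CPM, and highest of all in WT H 7, at 71.6 CPM. cox7a1, whose mammalian counterpart is the isoform of heart and muscle, was at 0.545 and 3.36 CPM, against 23.4 to 39.8 CPM elsewhere, and COX7A2 (ENSDARG00000110700) at 44.4 and 27.5 CPM, against 44.5 to 86.2 CPM. ndufa4b held 13.2 and 37.8% of the NDUFA4 family, against 51.9 to 74.6% elsewhere.

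**Figure D3:**
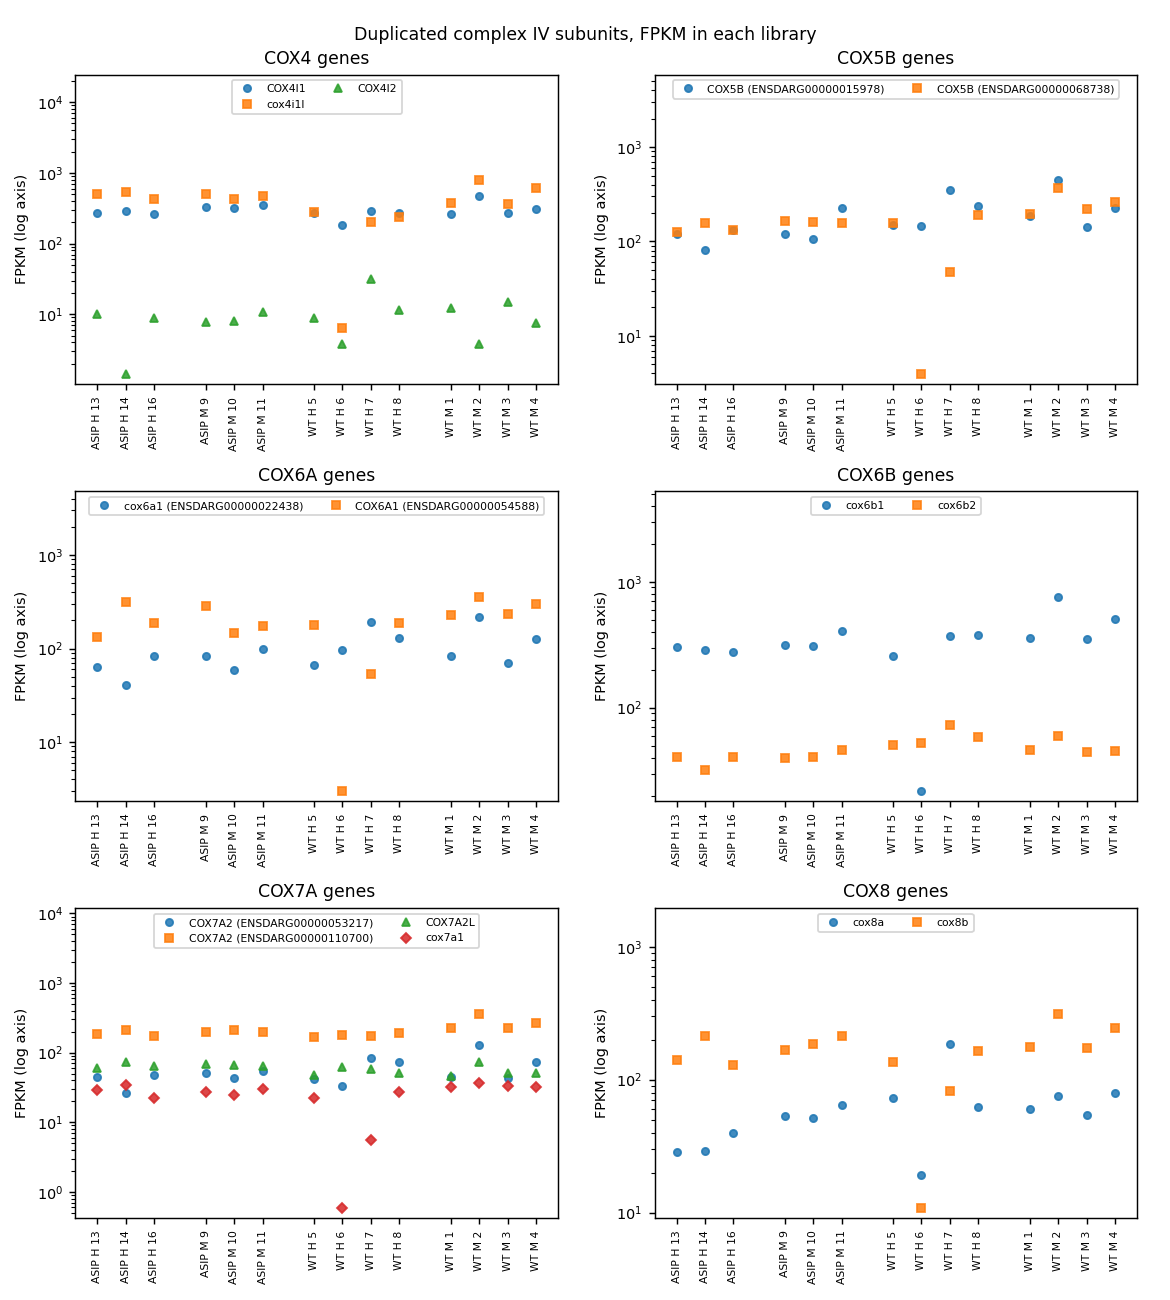
FPKM (log axis) of the duplicated complex IV genes in each library, 1 panel per family. In WT H 6, cox4i1l, COX5B (ENSDARG00000068738), COX6A1 (ENSDARG00000054588), cox6b1, cox7a1 and cox8b drop by an order of magnitude or more while COX4I1, COX5B (ENSDARG00000015978), cox6a1 (ENSDARG00000022438), cox6b2 and COX7A2 (ENSDARG00000110700) differ far less from their levels elsewhere. cox8a is also lowest in WT H 6.

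Between genotypes, COX7A2L and cox8a passed in some alternatives. COX7A2L, a COX7A-related protein that in mammals helps complexes III and IV join into supercomplexes, had 47.0, 59.3 and 50.5 CPM in ASIP H and 41.6, 43.0 and 43.0 CPM in ASIP M libraries, against 34.5, 40.5, 24.9 and 33.8 CPM in WT H and 30.0, 46.5, 36.5 and 31.5 CPM in WT M libraries. By CPM the H groups did not overlap, but by FPKM they did, with WT H 6 above ASIP H 13. In M, 46.5 CPM in WT M 2 lay above all 3 ASIP M values. Its log2 fold change was 0.44 over both letters (SE 0.16, adjusted p = 0.169) and 0.64 within H (SE 0.23, adjusted p = 0.143), so it did not pass the test.

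The gene cox8a, for a small membrane subunit, had 20.2, 21.3 and 28.2 CPM in ASIP H and 29.0, 30.5 and 39.0 CPM in ASIP M libraries, against 48.0, 11.2, 71.6 and 37.2 CPM in WT H and 35.7, 43.2, 35.5 and 44.0 CPM in WT M libraries. Only WT H 6 lay below the ASIP H values. Its log2 fold change was -0.56 over both letters (SE 0.31, adjusted p = 0.333). Without WT H 6 and WT H 7 it was again -0.56, with an SE of 0.13 and an adjusted p of 0.0286, and over the 21 alternatives the adjusted p lay between 0.0213 and 0.506. In that fit 2 of 92 members passed, against 7.88% of all tested genes.

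Between genotypes over both letters, 1 of 92 members passed and rose, and none fell, against 4.21% of all tested genes that passed in either direction. The median log2 fold change was -0.09 for the members and -0.11 for all tested genes, and 3 members had an unadjusted p under 0.05. With limma voom and sample quality weights, which give less weight to the libraries that stand apart, 7 members passed, against 13.2% of all tested genes: ndufa9b and COX7A2L rose, and NDUFS8, NDUFB8, SDHB, atp5mj and cox8a fell. With edgeR over all libraries, the median log2 fold change was -0.11 in complex I, -0.06 in complex II and -0.07 in complex III. It was 0.00 in complex IV and -0.12 in complex V.

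Within H, 1 of 92 members passed, against 1.15% of all tested genes. Of the members, 68 had a log2 fold change above 0 and 24 below, with a median of 0.16, against -0.17 for all tested genes. The positive values were largest in complex IV, with a median of 0.33, and reached 1.78 for cox4i1l (SE 0.77, adjusted p = 0.181), 1.29 for COX6A1 (ENSDARG00000054588) and 1.28 for cox7a1, the genes that were low in WT H 6 and WT H 7. Without those libraries the values were 1.13 for cox4i1l (SE 0.31, adjusted p = 0.106), 0.45 for COX6A1 (ENSDARG00000054588) and 0.42 for cox7a1, and the median of complex IV was -0.05. The lowest was NDUFA4L2, a relative of NDUFA4, at -1.14 (SE 0.71, adjusted p = 0.312), with 22.6 CPM in WT H 7 and 2.21 to 8.46 CPM in the other 13 libraries, and -0.03 without WT H 7. Without WT H 6 and WT H 7 the median of the members was -0.08, against 0.02 for all tested genes, and 63 of 92 were below 0, so the direction within H turned. With voom, 3 members passed within H, against 4.84% of all tested genes, and these were ndufa9b, COX7A2L and cox4i1l.

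Groups of the H libraries did not overlap for 6 members that were higher in ASIP H, against 7.64% of all tested genes, and for 0 that were lower, against 6.03%. The 6 were COX4I1, COX7A2 (ENSDARG00000110700), COX7A2L, NDUFV1, cox4i1l and ndufa9b. Against WT H 5 and WT H 8 alone, the same 6 were higher, against 13.5% of all tested genes, and 15 were lower, against 15.0%. Over both letters the genotypes did not overlap for ndufa9b alone, against 2.25% of all tested genes higher and 1.48% lower. These overlaps are by CPM, with TMM factors of 0.814 to 0.854 in ASIP H and 1.57 in WT H 7. By FPKM, COX4I1 overlapped within H, at 265 to 292 in ASIP H and 181 to 286 in WT H libraries. NDUFV1 also overlapped by FPKM, at 58.2 to 63.2 and 51.3 to 70.7, whereas ndufa9b did not. COX7A2L overlapped by FPKM too, with WT H 6 above ASIP H 13. The overlap of the other genes is given by CPM only.

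Within M, 1 of 92 members passed, against 0.956% of all tested genes. Here 84 members were below 0 and 8 above, with a median log2 fold change of -0.31, against -0.01 for all tested genes. All 20 members of complex V and all 4 tested of complex II were below 0, against 18 of 20 and 2 of 4 without WT M 2. The groups did not overlap for 11 members that were lower in ASIP M, against 9.32% of all tested genes, and for ndufa9b, higher, against 9.83%. The 11 were NDUFA2, NDUFB8, NDUFS8, NDUFV2, COX5B (ENSDARG00000068738), cox6c, COX7A2 (ENSDARG00000110700), ndufa4b, atp5if1b, atp5mc3b and atp5mj, and the lowest log2 fold changes among the named members were -0.76 (atp5mj) and -0.73 (both tested COX5B genes). Without WT M 2 these were -0.59 for atp5mj, -0.54 for COX5B (ENSDARG00000068738) and -0.31 for COX5B (ENSDARG00000015978), and without ASIP M 11 the value of COX5B (ENSDARG00000015978) was -1.21. Without WT M 2 the median of the members was -0.11, with 66 below 0 and 26 above. The same 11 were then lower without overlap, against 13.2% of all tested genes, and 3 were higher (ndufa9b, COX7A2L and UQCRC2), against 13.4%. With voom, 4 members passed within M, against 8.35% of all tested genes: ndufa9b rose, and NDUFB8, NDUFS8 and atp5mj fell.

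**Figure D4:**
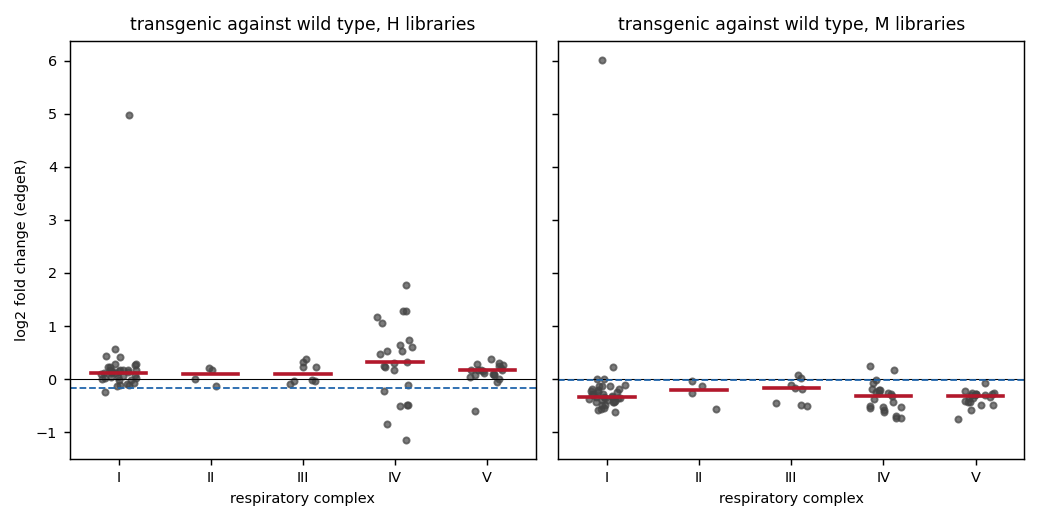
Log2 fold change of transgenic against wild-type libraries for each tested member (points), by complex, within H (left) and within M (right). Red bars are the median of each complex and the dashed line is the median of all tested genes, -0.17 within H and -0.01 within M. Only ndufa9b, at 4.98 and 6.02, passed the test.

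The effects within H and within M were compared directly. The median difference, H effect minus M effect, was 0.45 for the members and -0.11 for all tested genes, with 86 of 92 members above 0. No member passed with edgeR, DESeq2 or voom, 1 had an unadjusted p under 0.05 with edgeR (COX7A2 (ENSDARG00000110700), 0.90, SE 0.35, adjusted p = 0.667), and 0% of all tested genes passed with edgeR. Without WT M 2, WT H 6 and WT H 7 the median difference was 0.01. WT M 2 was set apart by the members' own levels, so part of this fall was fixed by that choice.

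Between the letters, no member passed in either genotype with edgeR, DESeq2 or voom. ASIP H against ASIP M gave a median log2 fold change of -0.03 for the members and 0.02 for all tested genes, with 0 unadjusted p-values under 0.05, and 0% of all tested genes passed. WT H against WT M gave a median of -0.47 for the members and 0.08 for all tested genes, with 86 of 92 below 0 and 11 unadjusted p-values under 0.05, and 0.00537% of all tested genes passed. Without WT M 2, WT H 6 and WT H 7 the median was 0.00, with 46 members above 0 and 46 below. WT M 2 was set apart by its high levels of the members, so part of this rise was fixed by that choice.

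In both ASIP groups the spread between libraries was smaller for the members than for all tested genes. The median SD of log2 CPM was 0.14 for the members in ASIP H, against 0.36 for all tested genes, and 0.23 in ASIP M, against 0.28. It was 0.43 in WT H, against 0.98, and 0.39 in WT M, against 0.34. Without WT M 2 the value in WT M was 0.15 for the members and 0.25 for all tested genes. The fall for the members was set in advance, because WT M 2 was set apart by their levels. Without WT H 6 and WT H 7, with 2 libraries left, that in WT H was 0.22 for the members and 0.29 for all tested genes. The members also stood higher, at a median of 5.64 to 6.03 log2 CPM in ASIP libraries, against 3.05 to 3.27 for all tested genes. Counting error is larger at low levels, and the spread was not compared at matched levels. The smaller spread therefore cannot be read as a trait of the members.

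The 13 subunits encoded in mitochondrial DNA took 3.26 to 4.13% of counts in ASIP H, 4.50 to 5.14% in ASIP M, 0.699 to 5.73% in WT H and 4.90 to 8.96% in WT M libraries. As for the nuclear members, the share was lowest in WT H 6 and highest in WT M 2. The order of the other libraries differed, with WT H 5 at 5.73% for this set and 0.923% for the nuclear members. None of the 13 passed in any of the 6 comparisons with edgeR over all libraries or with DESeq2, and none had an unadjusted p under 0.05 in either. With voom, 1 of the 13 passed over both letters and was lower, against 13.2% of all tested genes. Within H 13 of 13 were above 0, with a median log2 fold change of 0.23, and within M 13 of 13 were below 0, with a median of -0.49. Without WT H 6 and WT H 7 the median within H was -0.37, with 13 of 13 below 0. In that fit 1 of the 13, mt-nd4l, passed with edgeR over both letters and was lower, against 7.88% of all tested genes.

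**Figure D5:**
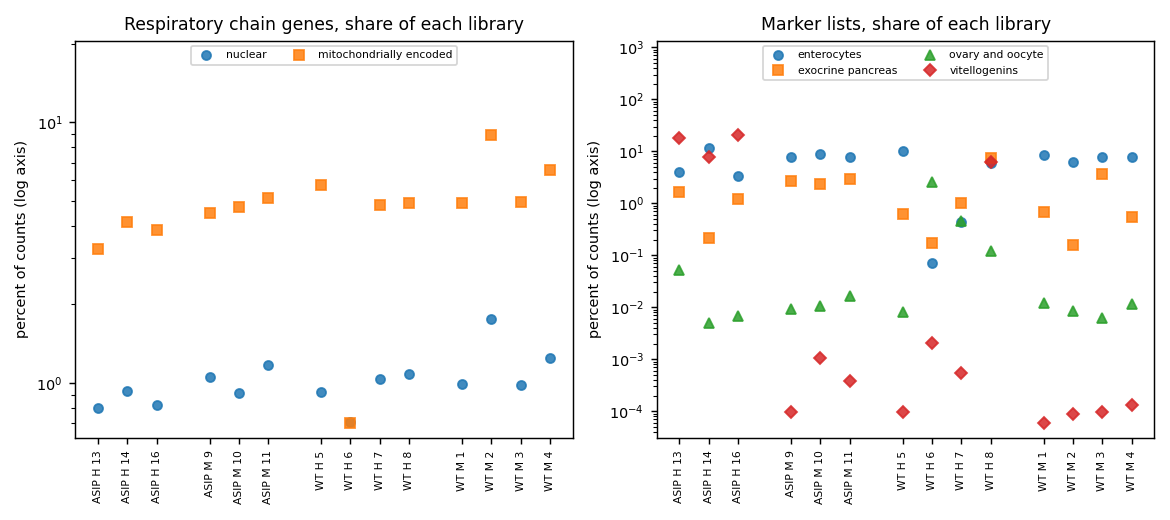
Share of each library's counts (log axis) taken by the nuclear and the mitochondrially encoded respiratory chain genes (left) and by 4 marker lists (right). WT M 2 is highest on the left, WT H 6 is lowest on the left, and WT H 6 and WT H 7 have the lowest enterocyte and the highest ovary shares.

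Genes that build and serve the complexes were described from lists. Of 56 assembly factors, 2 rose and 0 fell over both letters, with a median log2 fold change of -0.22 against -0.11 for all tested genes, of which 4.21% passed. The 2 were taco1, a translational activator of the mitochondrially encoded COX1 in mammals, and uqcc5, an assembly factor of complex III. taco1 averaged 3.60 ± 1.12 CPM in ASIP H and 4.68 ± 1.91 CPM in ASIP M libraries, against 0.141 ± 0.0326 CPM in WT H libraries and no count in the 4 WT M libraries (adjusted p = 4.73e-05). uqcc5 was at 2.88 to 4.38 CPM in ASIP H and 2.64 to 4.70 CPM in ASIP M, against 0.317 to 1.27 CPM in WT H and 0.467 to 1.21 CPM in WT M libraries, a difference of 2.18 on the log2 scale (SE 0.34, adjusted p = 0.00288). Both passed in all 14 fits that left out 1 library. The low-count filter kept taco1 through the transgenic libraries alone, so only a rise could be called for it.

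Of 74 tested genes of the mitochondrial ribosome, 1 rose and 1 fell over both letters, with a median of -0.36, against -0.11 for all tested genes, of which 4.21% passed. MRPL51 rose, with 31.4 ± 3.69 CPM in transgenic and 13.3 ± 5.87 CPM in wild-type libraries (SD, n = 6 and 8, adjusted p = 0.00321). MRPL2 fell, with 36.8 ± 5.19 CPM in transgenic and 61.2 ± 9.90 CPM in wild-type libraries (-0.74, SE 0.16, adjusted p = 0.0174). The list took 0.240 and 0.190% of counts in WT H 6 and WT H 7, against 0.0834 to 0.175% elsewhere, and the assembly factors 0.118 and 0.111%, against 0.0503 to 0.102%. By the median log2 CPM over the list, the mitochondrial ribosome stood at 4.72 in WT H 6 and 3.78 in WT H 7, against 3.47 to 4.32 elsewhere. The assembly factors stood at 3.55 and 3.02, against 2.78 to 3.73 elsewhere. On this scaled measure only the mitochondrial ribosome in WT H 6 lay outside the range of the other libraries. The call of MRPL2 was lost in 3 of the 14 fits without 1 library (without ASIP H 16, ASIP M 9 or ASIP M 10, highest adjusted p 0.0688).

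Over both letters 4.21% of all tested genes passed, the share to set beside each count that follows. Of 14 tested electron and nucleotide carriers 1 rose, SLC25A4, which exchanges ADP for ATP across the inner membrane. It was at 0.417 to 1.46 CPM in ASIP H and 2.03 to 3.75 CPM in ASIP M, against 0 to 0.300 CPM in WT H and 0.0723 to 0.494 CPM in WT M libraries (3.35, SE 0.65, adjusted p = 0.0104). Like taco1, SLC25A4 was kept by the low-count filter through transgenic libraries alone, so only a rise could be called. Of 21 tested regulators and mitochondrial DNA genes 1 fell, TFB1M, which methylates mitochondrial ribosomal RNA (-1.04, SE 0.25, adjusted p = 0.0309), and of 13 antioxidant genes 1 fell, GSR, glutathione reductase (-0.76, SE 0.17, adjusted p = 0.0274). TFB1M lost its call without ASIP H 13 or 16, ASIP M 9, 10 or 11, or WT M 2 or 4 (adjusted p up to 0.0921), and GSR without any ASIP H library, ASIP M 10 or 11, WT H 7 or 8, or WT M 1 or 3 (adjusted p up to 0.108). No gene passed over both letters among 20 of the citric acid cycle and pyruvate dehydrogenase (median 0.11, 3 with an unadjusted p under 0.05) or 30 of glycolysis (median -0.25, 2 with an unadjusted p under 0.05).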

How the data were processed

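Poly-A RNA of zebrafish intestine was sequenced after Trizol extraction and a stranded library kit, per the labels' protocols. Tools named in the submitters' processing notes are edgeR, featureCounts 1.6.3, STAR 2.7.3a and FastQC; the notes list GRCz11, GRCm38.p6 and mm10 with no role. How featureCounts treated strand is not given in those notes. Gene-level read counts were deposited without normalization. Reads of near-identical paralogs may be miscounted, which was not tested. The FPKM values deposited beside them equal those counts over gene length and total (largest relative deviation 6.19e-14) and are used to compare levels between genes. FPKM and shares of counts are not scaled for library composition.

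Symbols came from the supplied reference tables, except the name ndufa9b, which was set for its identifier. In 18 lists, 345 of 388 names matched. The members, lists, rules and part of the alternatives were chosen with earlier results of these data known. Tests used edgeR 4.0.16 (R 4.3.3): filterByExpr on the 4 groups (18619 genes), TMM scaling, 1 mean per group over all 14 libraries, glmQLFit and glmQLFTest, and Benjamini-Hochberg adjustment over all tested genes at 0.05. The 6 comparisons were genotype over both letters, within H, within M, the difference of those effects, and H against M in each genotype. Transgenic and H are on top of each fold change. The SE is the absolute log2 fold change over the square root of F and restates the test. Counts of unadjusted p-values under 0.05 are given without the share of all tested genes, so they stand as description only. Log2 CPM used a prior count of 2. Alternatives were DESeq2 1.42.0, limma 3.58.1 voom with quality weights, RLE factors, no low-count filter, scaling without mitochondrially encoded and vitellogenin genes, fits of single letters or genotypes, and leaving out libraries. The code was tested on simulated data. Named members are those that pass, the 2 of highest mean FPKM and the extremes within H and M of each complex (at least 5 CPM), the duplicated families and the members not tested; others were named after their values were seen. No sequence is shown.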

Additional observations from a re-analysis of the deposited data

Results flagged for a closer look

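Within the WT H and WT M groups of 4, 116 sets of log2 CPM values were checked with Dixon's ratio, and 7 held a library beyond its 95% critical value for 4 samples. Chance marks about 1 group in 20. ATP5F1A was low in WT H 7, at 9.23 log2 CPM. ATP5MC3 was high in WT H 8, at 7.33. COX7A2 (ENSDARG00000110700) was low in WT H 7, at 4.79. NDUFB5 was high in WT M 2, at 6.43, and UQCRC2 was high in the same library, at 7.83. The c-subunit gene atp5mc3b was low in WT M 4, at 9.25. Finally, cox6b1 was low in WT H 6, at 3.77, or 13.4 CPM. Of the 7, 5 fall in WT H 6, WT H 7 and WT M 2, which stood apart for many members.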

How the results depend on the processing

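With DESeq2, RLE factors, no low-count filter or the other scaling, the number of members passing was 1 over both letters, within H and within M, and 0 in the other 3 comparisons. Leaving out 1 library gave 1 to 3 members over both letters (3 without WT H 6: ndufa9b, COX7A2L and cox8a), 1 to 2 within H (2 without WT H 6, the other being cox8a at -1.15 on the log2 scale, edgeR adjusted p = 0.0296, against 0.0296 to 0.576 over its alternatives), 1 within M and 0 otherwise. Without WT H 6 and WT H 7, 2 members passed over both letters. With voom, 7 passed over both letters, 3 within H and 4 within M. Of the alternatives added with the data seen, leaving out WT M 2 as well gave 3 over both letters and 2 within H (cox4i1l besides ndufa9b), and the H libraries alone without WT H 6 and WT H 7 gave 0 within H, a fit with fewer samples. For these additions and the fits without 1 library, the share of all tested genes that passed is not given. Their counts therefore cannot be read as a result about the members. COX7A2L over both letters had adjusted p-values between 0.00606 and 0.292 over its 21 alternatives. Over all tested genes, the calls over both letters, within H and within M numbered 784, 214 and 178 in the fit reported, 1838, 2132 and 589 with DESeq2, 2453, 902 and 1555 with voom, and 1474, 372 and 722 without WT H 6 and WT H 7. Of the named members' values, 17 changed their call and no called value reversed, while 545 of 7504 values that passed in neither fit took the other sign. No paired analysis was possible because no replicate number is shared between groups. The shift within H turned below 0 without WT H 6 and WT H 7, and with voom (median -0.15). Depth limits ndufa9b, taco1 and SLC25A4, which had few or no counts in wild-type libraries. The low-count filter kept these genes through transgenic libraries alone.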
